A study of Mus musculus with 8 samples.

Results

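Usp17la to Usp17le and Tdpoz1 to Tdpoz5 are 10 multicopy mouse genes of the 2-cell burst, taken by symbol from a table of 55487 genes. The series measured RNA by sequencing in mouse embryos at the 2-cell stage, and its stated purpose was the effect on the transcriptome of a CasRX knockdown of Polq. CasRX is a Cas13 nuclease that a guide directs to RNA, which it then cuts. The knockdown-labelled group of 4 libraries, with the genotype label polq knockdown, came from zygotes injected with CasRX and a guide RNA (gRNA) against Polq. The control group of 4 libraries, with the genotype label WT, received CasRX without a named guide. Injection took place 20 h after hCG in both groups, and RNA was taken 10 h later, and each library holds RNA of 5 pooled embryos. The sources used here name neither the strain nor the parents' age. Because every library pools whole embryos, fewer embryos in the active state and less RNA per embryo cannot be told apart.

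The Usp17l genes lie on chromosome 7 and encode ubiquitin-specific proteases, enzymes that remove ubiquitin from proteins. In mouse lymphocytes, copies of this family (Dub1 and Dub2) were first described as immediate early genes induced by interleukins. The Tdpoz genes lie on chromosome 3 and encode proteins with a TRAF domain and a POZ (BTB) domain. They are relatives of Spop, which brings substrates to the cullin-3 ubiquitin ligase. Transcripts of both families are known from the burst of zygotic transcription in the mouse 2-cell embryo, in which the endogenous retrovirus MERVL is also active.

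The copies are shown first by their upstream DNA, because the Usp17l copies share a closely similar stretch there while their RNA levels differ. RefSeq (GRCm38.p6) gave a promoter for 7 of the 10 members, and 3 (Usp17le, Tdpoz2 and Tdpoz3) had none. For 4 Usp17l copies the matching 100 bases ahead of the RefSeq start are printed, and for Tdpoz1 the first 220 bases of its promoter. None of these bases is exonic in GENCODE M21, and the Usp17lc stretch is intronic there because GENCODE starts that gene further upstream. The positions are chr7:104842608-104842707 (minus strand) for Usp17lb, chr7:103416515-103416614 (plus) for Usp17lc, chr7:104856877-104856976 (plus) for Usp17la, chr7:103252609-103252708 (minus) for Usp17ld and chr3:93676314-93676533 (minus) for Tdpoz1. Capitals mark matches to TATAAA (a form of the TATA box) and to CCAAT (found here as its reverse complement ATTGG). They also mark GGATTA, a core bound by paired-like homeodomain proteins (found as its reverse complement TAATCC). Only exact matches were searched, so a variant such as the tatataa in the Tdpoz1 stretch is not marked.
Usp17lb: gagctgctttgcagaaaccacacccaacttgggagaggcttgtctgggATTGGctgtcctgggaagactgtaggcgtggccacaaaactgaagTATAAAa
Usp17lc: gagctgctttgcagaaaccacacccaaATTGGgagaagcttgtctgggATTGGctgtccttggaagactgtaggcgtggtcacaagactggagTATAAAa
Usp17la: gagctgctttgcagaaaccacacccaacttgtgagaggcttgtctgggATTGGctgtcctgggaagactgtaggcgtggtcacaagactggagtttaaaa
Usp17ld: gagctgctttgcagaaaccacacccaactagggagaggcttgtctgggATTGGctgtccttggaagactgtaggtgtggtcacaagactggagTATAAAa
Tdpoz1: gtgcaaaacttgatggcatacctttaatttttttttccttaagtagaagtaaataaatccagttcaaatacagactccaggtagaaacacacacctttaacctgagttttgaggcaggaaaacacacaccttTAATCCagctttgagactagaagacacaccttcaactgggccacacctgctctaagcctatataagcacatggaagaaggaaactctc
The 4 Usp17l stretches were 94.0% to 96.0% identical to each other without a gap. They were chosen as the stretch the 4 copies share, and the whole 300-base promoters differed more. In alignments spanning 206 to 284 columns of these promoters, Usp17lb was 86.4% identical to Usp17lc, 87.7% to Usp17la and 92.7% to Usp17ld, below the 94.96% to 96.8% among the other 3 copies. TATAAA occurred in Usp17lb, Usp17lc and Usp17ld, and 13.6% of the 32851 RefSeq promoters held it on either strand. In Usp17lb its first base lay 31 bases before the RefSeq start, and in Usp17lc and Usp17ld 88 and 110 bases before it. GENCODE starts Usp17lb at 104842603, further upstream than RefSeq, so the match lies closer to that start. CCAAT occurred in 6 of the 7 member promoters and in 37.4% of all promoters. GGATTA occurred in Tdpoz1 alone of the 7 and in 7.06% of all promoters. The sequence GATTNAATC, after the motif of the 2-cell transcription factor Dux, occurred in 0 of the 7 and in 0.268% of all, and the E-box CACGTG in 0 of the 7 and in 7.15%. The RefSeq starts of Usp17ld, Tdpoz4 and Tdpoz5 are start codons, so their upstream windows need not be promoters, and the 110 bases given for Usp17ld run to its start codon.

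Of the 10 members 9 had at least 1 count, and 7 had counts high enough to test. The few counts of Usp17ld cannot be fully separated from those of Usp17lc. Usp17lb and Tdpoz1 carried most of the counts among the 5 members of each family (Tdpoz8 and Tdpoz9, with 5611 and 2422 counts over the 8 libraries, are not members), and no member passed the test between the groups. The knockdown-labelled libraries held 4726160, 8627402, 8100972 and 33650068 counts (replicates 1 to 4) and the controls 33311679, 35007621, 43748629 and 40702824. Polq itself averaged 31.5 ± 11.03 counts per 1000000 (CPM, with TMM scaling between libraries) in the knockdown-labelled libraries and 39.3 ± 7.65 CPM in the controls (SD, n = 4 each), with overlapping groups (edgeR adjusted p = 1.0). The libraries are therefore named by their label. All 10 markers of oocytes and 2-cell embryos had counts in all 8 libraries and summed to 3901 to 6290 CPM in the knockdown-labelled libraries and 3578 to 6440 CPM in the controls. Of the markers of cumulus and granulosa cells 6 of 10 were at 0 in all libraries, and the list summed to 0.793 to 10.7 CPM in the knockdown-labelled libraries and 0 to 21.5 CPM in the controls. Of 6 sperm markers 5 were at 0 throughout, with sums of 0 to 7.34 CPM in the knockdown-labelled libraries and 0 to 7.06 CPM in the controls. Of 3 blood markers 1 was at 0 throughout, and the sums were 5.83 to 9.12 CPM in the knockdown-labelled libraries and 0.0229 to 16.2 CPM in the controls.

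Usp17lb was the most abundant member and the most even between libraries. It was at 100.3, 142.9, 82.6 and 112 CPM in knockdown-labelled replicates 1 to 4, against 129.7, 158.9, 149.6 and 119.8 CPM in control replicates 1 to 4. Knockdown-labelled replicates 1, 3 and 4 lay below all controls, and replicate 2 lay inside their range. The mean was 109.5 ± 25.3 CPM in the knockdown-labelled libraries and 139.5 ± 17.9 CPM in the controls (SD, n = 4 each). The fitted level was 0.785 times that of the controls (95% interval 0.563 to 1.09), a log2 fold change of −0.35 with an SE of 0.21 (edgeR, adjusted p = 1.0). By exact permutation of the 8 libraries the p was 0.114, 2-sided, where 0.0286 is the smallest that 4 against 4 can give. In GRCm38 the gene (ENSMUSG00000062369.2) spans 104840257 to 104842603 on the minus strand of chromosome 7, with 2 exonic regions.

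Usp17lc showed almost the same mean in both groups. Libraries gave 25.98, 49.0, 35.6 and 29.7 CPM in knockdown-labelled replicates 1 to 4, against 30.6, 54.8, 30.4 and 23.4 CPM in control replicates 1 to 4. Replicate 2 was the highest library in both groups, and the groups overlapped fully. The means were 35.1 ± 10.1 CPM in the knockdown-labelled libraries and 34.8 ± 13.8 CPM in the controls (SD, n = 4 each). The fitted ratio was 1.01 with a 95% interval from 0.586 to 1.73 (edgeR adjusted p = 1.0). The log2 fold change of 0.01 turned to −0.18 without knockdown-labelled replicate 2 and to −0.040, −0.051 and −0.14 without controls 1, 3 and 4. Usp17lc (chromosome 7, 103415072 to 103419880, plus strand) contains the small annotated gene Gm25774 on the same strand.

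Usp17la was less even between libraries. It was at 13.9, 4.01, 6.24 and 8.99 CPM in knockdown-labelled replicates 1 to 4, against 4.80, 20.98, 7.02 and 5.31 CPM in control replicates 1 to 4. Control replicate 2 stood 2.99 times above the next control, and the groups overlapped. The fitted ratio was 0.868 with a 95% interval from 0.294 to 2.56 (edgeR adjusted p = 1.0). The log2 fold change was −0.20, and it was 0.54 without control replicate 2 and 0.038 without knockdown-labelled replicate 2.

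Usp17ld and Usp17le had few counts, too few to test. Usp17ld had 3 counts in knockdown-labelled replicate 3 and 0 in the other 3 libraries of that group, against 2, 1, 12 and 0 counts in control replicates 1 to 4. Usp17le had 0, 4, 3 and 6 counts in knockdown-labelled replicates 1 to 4, against 3, 3, 0 and 0 counts in control replicates 1 to 4. A count of 0 allows up to 3 counts, which is 0.595 CPM in the smallest library and 0.0686 CPM in the largest, for counting error only. Usp17ld shares 97.8% of its aligned bases with Usp17lc, so its few counts and those of Usp17lc cannot be fully separated.

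**Figure D1:**
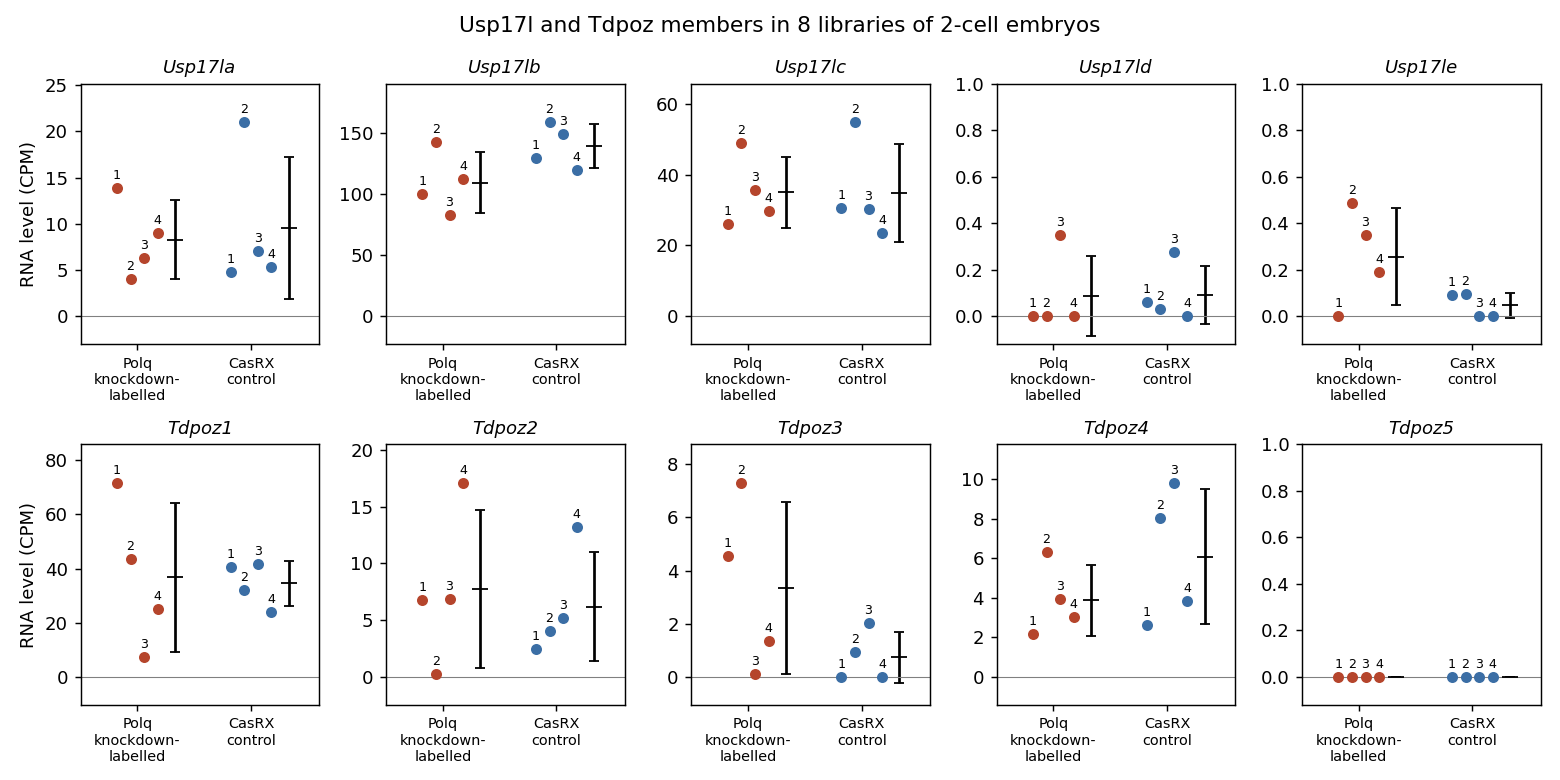
RNA level in CPM (vertical axis, linear, a separate scale per gene) of the 10 members in the 4 Polq knockdown-labelled libraries (red, left) and the 4 CasRX controls (blue, right), with replicate numbers beside the points and the mean ± SD in black. The groups overlap in all 10 panels, Tdpoz1 spans 7.16 to 71.6 CPM within the knockdown-labelled group, and Tdpoz5 is at 0 in every library.

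Tdpoz1 was the most abundant Tdpoz member and varied 9.99-fold among the knockdown-labelled libraries. It was at 71.6, 43.5, 7.16 and 25.1 CPM in knockdown-labelled replicates 1 to 4, against 40.6, 31.9, 41.6 and 24.0 CPM in control replicates 1 to 4. Replicate 1 was above and replicate 3 below every control. Those values rest on 361 and 62 counts, whose exact 95% Poisson intervals of 64.4 to 79.4 CPM and 5.49 to 9.18 CPM cover counting error only and do not touch. The means were 36.8 ± 27.5 CPM in the knockdown-labelled libraries and 34.5 ± 8.25 CPM in the controls (SD, n = 4 each). The fitted ratio was 1.06 (95% interval 0.442 to 2.56), a log2 fold change of 0.09 with an SE of 0.57 (edgeR, adjusted p = 1.0). Without knockdown-labelled replicate 1 the log2 fold change was −0.45, and without knockdown-labelled replicate 3 it was 0.43. Without control replicate 4 it was −0.054. Tdpoz1 (ENSMUSG00000094084.2) spans 93669333 to 93676310 on the minus strand of chromosome 3 with 2 exonic regions.

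Tdpoz2 was highest in replicate 4 of each group. It was at 6.74, 0.243, 6.82 and 17.1 CPM in knockdown-labelled replicates 1 to 4, against 2.42, 4.03, 5.15 and 13.2 CPM in control replicates 1 to 4. The groups overlapped, and knockdown-labelled replicate 2, with 2 counts, was the lowest of the 8 libraries. The fitted ratio was 1.25 with a 95% interval from 0.251 to 6.23 (edgeR adjusted p = 1.0). Without knockdown-labelled replicate 4 the log2 fold change was −0.44 in place of 0.32.

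Tdpoz4 and Tdpoz3 had the lowest CPM of the tested members. Tdpoz4 was at 2.18, 6.32, 3.93 and 3.04 CPM in knockdown-labelled replicates 1 to 4, against 2.63, 8.06, 9.81 and 3.84 CPM in control replicates 1 to 4 (fitted ratio 0.636, 95% interval 0.175 to 2.32, edgeR adjusted p = 1.0). Tdpoz3 was at 4.56, 7.29, 0.116 and 1.35 CPM in knockdown-labelled replicates 1 to 4, against 0, 0.945, 2.01 and 0 CPM in control replicates 1 to 4. Knockdown-labelled replicates 1 and 2 were above all controls and the other 2 lay within their range. The Tdpoz3 counts in the group were 23, 60, 1 and 43, and the 95% interval of its fold change reached from 0.211 to 94.3 around a log2 fold change of 2.16 with an SE of 1.97 (edgeR, adjusted p = 1.0). On chromosome 3 both genes run in the plus direction, Tdpoz4 at 93796398 to 93797510 and Tdpoz3 at 93826020 to 93827117.

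Tdpoz5 was listed at 0 in all 8 libraries. Every 50-base window of its annotated transcript, and every 100-base window, also occurs in Gm10697, which RefSeq names Tdpoz7 and which was at 0 as well. No read of those lengths could place a count on Tdpoz5 alone. Whether reads matching several genes were counted is not known here, so its 0 cannot be read as a measured absence. Part of its sequence (33.9% of 50-base windows) is also in Gm5543, which was at 22.9 to 45.6 CPM in the knockdown-labelled libraries and 25.1 to 44.3 CPM in the controls.

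None of the 7 tested members passed edgeR's quasi-likelihood test, where 0% of the 13146 genes tested passed. DESeq2 and limma-voom called 0 of the 7 as well, while DESeq2 called 0.152% of all genes. At an unadjusted p under 0.05 edgeR gave 0 of the 7, against 2.81% of all genes. In 0 of the 7 were the groups apart without overlap, against 2.98% of all genes tested (1.44% higher and 1.54% lower in the knockdown-labelled libraries). The fold change was positive in 4 members (Usp17lc, Tdpoz1, Tdpoz2 and Tdpoz3) and negative in 3 (Usp17la, Usp17lb and Tdpoz4), and 6128 of the 13146 genes were positive. The interval of the fold change was narrowest for Usp17lb and wider for the other 6 tested members, so differences within those intervals are not resolved by these libraries.

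**Figure D2:**
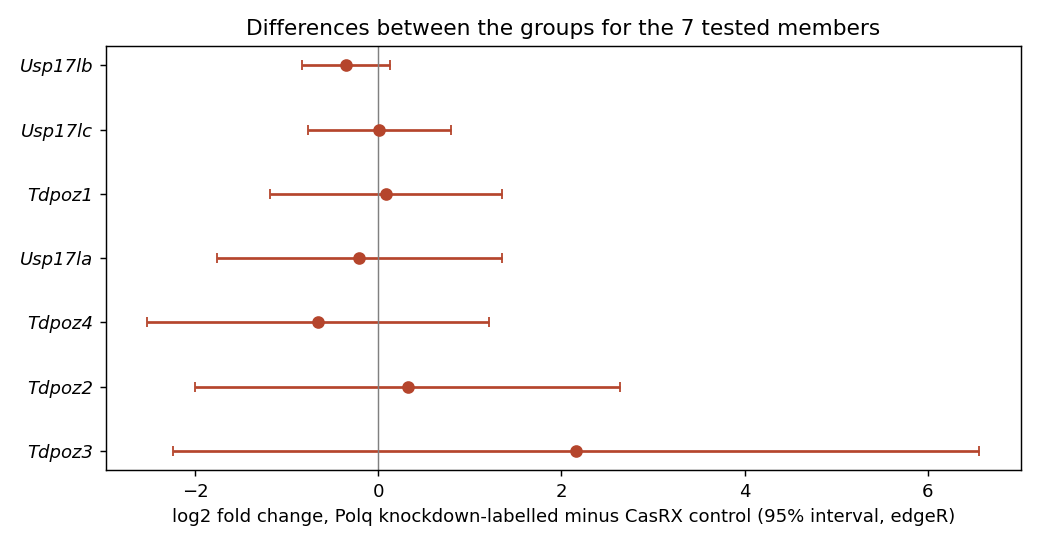
Log2 fold change, Polq knockdown-labelled minus CasRX control, of the 7 tested members (horizontal axis), with 95% intervals from edgeR, ordered from the most even gene between libraries (top) to the least even. All 7 intervals include 0, and they widen from Usp17lb (−0.83 to 0.13) to Tdpoz3 (−2.24 to 6.56).

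Summed over their 5 members each, the Usp17l family held more counts and was more even between libraries than the Tdpoz family. The Usp17l sum came to 140.2, 196.3, 125 and 151 CPM in knockdown-labelled replicates 1 to 4, against 165, 235, 187 and 149 CPM in control replicates 1 to 4. Replicate 2 was the highest of each group, and the groups overlapped. The mean was 153 ± 30.7 CPM in the knockdown-labelled libraries and 184.0 ± 37.4 CPM in the controls (SD, n = 4 each). The mean log2 sum, with 1 CPM added, differed by −0.26 (knockdown-labelled minus control), with a pooled SD of 0.278 between single libraries of a group. That SD is not the error of a difference of means. No p is given for the sums, because they are scores over the members.

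The Tdpoz sum came to 85.1, 57.3, 18.03 and 46.5 CPM in knockdown-labelled replicates 1 to 4, against 45.6, 45.0, 58.6 and 41.0 CPM in control replicates 1 to 4. Knockdown-labelled replicate 1 was above and replicate 3 below all controls. The mean was 51.7 ± 27.7 CPM in the knockdown-labelled libraries and 47.5 ± 7.62 CPM in the controls (SD, n = 4 each). The difference of the mean log2 sums was −0.060, with a pooled SD of 0.671. With knockdown-labelled replicate 3 left out it was 0.37, with knockdown-labelled replicate 1 left out −0.36 and with control replicate 3 left out 0.040. Over the 8 libraries the highest sum was 1.88 times the lowest for Usp17l and 4.72 times for Tdpoz. The 9785 counts of the Tdpoz sum leave out Tdpoz8 and Tdpoz9, with 5611 and 2422 counts. With every row of the family name the Tdpoz difference of the mean log2 sums was −0.12. The evenness of the 2 families was compared for the members only.

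**Figure D3:**
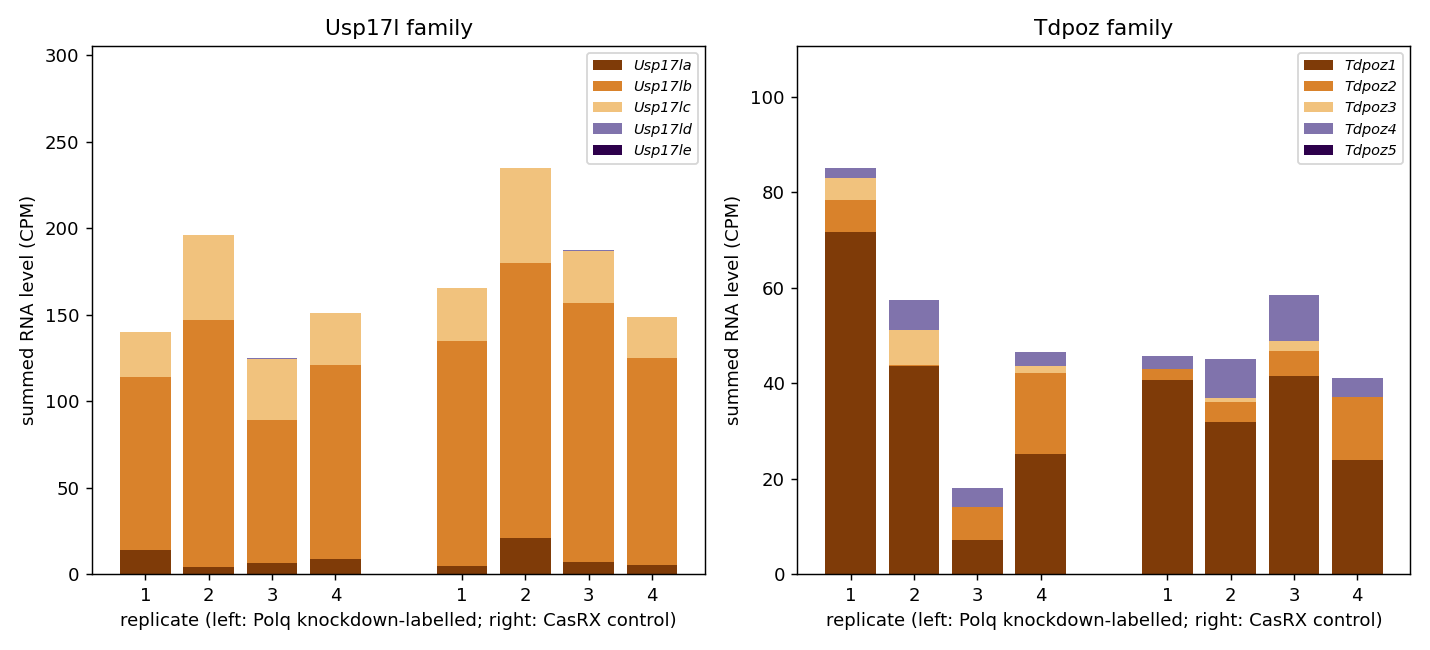
Summed RNA level in CPM (vertical axis from 0) of the Usp17l family (left) and the Tdpoz family (right) per library, stacked by copy, with the 4 Polq knockdown-labelled libraries left of the 4 CasRX controls in each panel. Usp17lb makes up 66.0% to 80.7% of the Usp17l counts in every library, while the Tdpoz1 share runs from 39.7% to 88.9%.

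Within the Usp17l family the order Usp17lb, Usp17lc, Usp17la held in all 8 libraries, while the shares differed between libraries by more than counting error. Usp17lb held 71.2 ± 3.59% of the family's counts in the knockdown-labelled libraries and 76.7 ± 6.07% in the controls (SD, n = 4 each). The lowest share was 66.0% (exact 95% binomial interval 63.1% to 68.8%) in knockdown-labelled replicate 3 and the highest 80.7% (79.7% to 81.6%) in control replicate 4. Usp17lc held 22.9 ± 4.63% in the knockdown-labelled libraries and 18.5 ± 3.47% in the controls. Usp17la held 5.72 ± 3.25% in the knockdown-labelled libraries and 4.79 ± 2.79% in the controls. The Usp17la share was highest in knockdown-labelled replicate 1, at 9.90% (7.80% to 12.3%), and lowest in knockdown-labelled replicate 2, at 2.04% (1.41% to 2.86%).

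The division among the Tdpoz copies differed from library to library. Tdpoz1 held 63.4 ± 20.3% of the counts in the knockdown-labelled libraries and 72.4 ± 12.5% in the controls (SD, n = 4 each). Its share was lowest in knockdown-labelled replicate 3, at 39.7% of 156 counts (exact 95% binomial interval 32.0% to 47.9%), and highest in control replicate 1, at 88.9% of 1492 counts (87.2% to 90.5%). Tdpoz2 held 37.8% and 36.7% in knockdown-labelled replicates 3 and 4, against 7.93% and 0.424% in replicates 1 and 2 of that group. In the controls Tdpoz2 held 32.2% in replicate 4 and 5.29% to 8.96% in the others. These intervals cover counting error only, since reads amplified from 1 molecule are not independent.

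Levels of different copies were compared per kilobase of exonic length in GENCODE M21, over all 8 libraries. Usp17lb averaged 79.8 CPM per kb, with all 8 libraries (52.9 to 102) above every library of the other copies. Tdpoz1 (15.2 CPM per kb, range 3.04 to 30.4) and Usp17lc (14.2, range 9.55 to 22.4) followed and overlapped. Next came Tdpoz2 at 6.08 CPM per kb, Tdpoz4 at 4.47, Usp17la at 3.35 and Tdpoz3 at 1.85, whose ranges overlapped from each to the next. Usp17le and Usp17ld stood at 0.0759 and 0.0449 CPM per kb, and Tdpoz5 at 0. The annotated exons of Tdpoz3, Tdpoz4 and Tdpoz5 hold no more than the coding sequence, so their per-length levels refer to coding length, and those of Tdpoz1 to a transcript with 1258 further bases. If reads matching several genes were left out upstream, the countable length differs by copy, and the order of copies with close levels, such as Usp17la and Tdpoz3, could differ.

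The copies also differed in their spread between libraries. The biological coefficient of variation fitted by edgeR was 0.263 for Usp17lb, lower than in all but 4.19% of the tested genes. It was 0.393 for Usp17lc, 0.572 for Tdpoz1, 0.738 for Usp17la, 0.845 for Tdpoz4, 1.01 for Tdpoz2 and 1.76 for Tdpoz3. Tdpoz3 exceeded 89.99% of the tested genes in this respect. The order is close to that of mean CPM, except that Usp17lc stands before Tdpoz1 and Tdpoz4 before Tdpoz2.

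How far reads can be given to 1 copy was measured on the annotated transcripts. The share of 50-base windows that also occur in another gene's transcript was 20.4% for Usp17la, 21.8% for Usp17lb, 44.7% for Usp17lc, 51.1% for Usp17ld and 30.8% for Usp17le. It was 45.1% for Tdpoz1, 48.3% for Tdpoz2, 66.2% for Tdpoz3, 41.2% for Tdpoz4 and 100% for Tdpoz5. With 100-base windows it fell to 3.83% for Usp17la and 10.6% for Usp17lb, while Usp17lc kept 32.3% and Tdpoz1 24.2%. The sources used here name no read length. Usp17lc shares chiefly with Usp17ld, and whether reads that match both were counted, and so enter the Usp17l sum, is not known here. Tdpoz1 shares with genes outside the 10 members, Gm9117 (44.5%) and Gm9125 (40.7%), the second of which RefSeq names Tdpoz9.

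**Figure D4:**
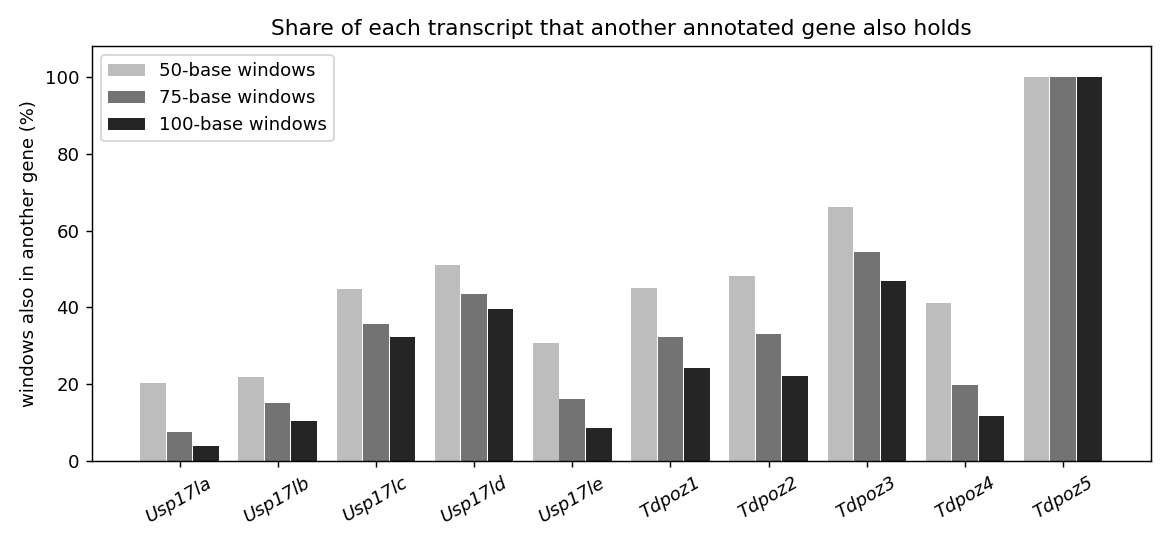
Share (%) of the windows of each member's longest annotated transcript that also occur in a transcript of another gene, for windows of 50, 75 and 100 bases (GENCODE M21, either strand). Tdpoz5 is at 100% for all 3 lengths, and Usp17la falls from 20.4% at 50 bases to 3.83% at 100 bases.

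The outside relatives had their own counts. Gm9117 was at 9.32, 19.9, 6.93 and 8.68 CPM in knockdown-labelled replicates 1 to 4, against 12.4, 16.7, 8.99 and 7.70 CPM in control replicates 1 to 4. Tdpoz9 was at 11.9, 16.8, 11.9 and 11.3 CPM in knockdown-labelled replicates 1 to 4, against 8.93, 14.2, 17.8 and 5.56 CPM in control replicates 1 to 4. In knockdown-labelled replicate 1, where Tdpoz1 was highest, both lay inside the range of the controls. Tdpoz8, which shares 23.4% of the 50-base windows of Tdpoz4, was at 15.7, 19.7, 15.8 and 22.9 CPM in knockdown-labelled replicates 1 to 4, against 26.1, 33.8, 44.8 and 14.4 CPM in control replicates 1 to 4. All 63 non-zero deposited values of the 10 members were exactly whole, while 14.4% of the non-zero values of the whole table had a fractional part. RSEM divides reads among the genes they match, and the sources used here do not say how reads matching several copies were treated.

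None of the other genes listed for these pathways passed the test. Of 28 tested TD-POZ and cullin-3 ligase relatives, 0 passed in either direction, 14 fold changes were positive and the median log2 fold change was 0.0032, beside −0.047 over all genes tested. Rbx1, the RING subunit of cullin ligases, was at 1820.1 ± 292 CPM in the knockdown-labelled libraries and 2001 ± 83.9 CPM in the controls, and Cul3, the scaffold, at 422 ± 41.2 CPM in the knockdown-labelled libraries and 367 ± 46.9 CPM in the controls. The 2 smallest p of this list belonged to Dcun1d1 and Klhl9. Dcun1d1, which promotes neddylation of cullins, was at 199.7 ± 65.9 CPM in the knockdown-labelled libraries and 308 ± 77.3 CPM in the controls (edgeR unadjusted p = 0.0383, adjusted p = 1.0). Klhl9, an adaptor of cullin-3, was at 174 ± 20.5 CPM in the knockdown-labelled libraries and 232 ± 67.3 CPM in the controls.

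Of 45 tested ubiquitin-specific proteases outside the family, 0 passed, 22 were positive and the median log2 fold change was −0.12. Usp16, which acts on ubiquitinated histone H2A, was at 338 ± 37.2 CPM in the knockdown-labelled libraries and 310.3 ± 45.0 CPM in the controls. Usp7, which acts on Mdm2 and p53, was at 214 ± 59.7 CPM in the knockdown-labelled libraries and 245 ± 38.4 CPM in the controls. The 2 smallest p of this list belonged to Usp3 and Usp40, and the groups overlapped for both. Usp3 was at 8.80 ± 4.75 CPM in the knockdown-labelled libraries and 22.1 ± 14.3 CPM in the controls. Usp40 was at 4.95 ± 5.09 CPM in the knockdown-labelled libraries and 0.964 ± 0.546 CPM in the controls. Knockdown-labelled replicate 4 held 12.4 CPM of Usp40, against 1.19 to 4.04 CPM in the others of that group. The groups were apart for 1 other gene of the 45, higher in the knockdown-labelled libraries, beside 1.44% of all genes tested.

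None of the other listed genes of the 2-cell burst passed the test. Of 36 tested, 0 passed, 18 were positive and the median log2 fold change was −0.0043. The 2 highest in CPM were Rfpl4b, at 1182 ± 228 CPM in the knockdown-labelled libraries and 1106 ± 364 CPM in the controls, and Gm5662, at 883 ± 348 CPM in the knockdown-labelled libraries and 890.3 ± 472 CPM in the controls. The 2 with the smallest p were Zfp42 (Rex1), a zinc finger gene, at 11.3 ± 5.64 CPM in the knockdown-labelled libraries and 3.83 ± 1.77 CPM in the controls, and Spz1, at 24.7 ± 7.13 CPM in the knockdown-labelled libraries and 40.4 ± 11.7 CPM in the controls. The groups did not overlap for Zfp42 (adjusted p = 1.0 by edgeR) and overlapped for Spz1. Zfp42 was the 1 gene of the 36 with groups apart, beside 1.44% of all genes tested that were apart in the same direction. Of 34 tested regulators of the 2-cell programme, 0 passed, 18 were positive and the median was 0.0078. The homeobox gene Obox5 was at 1729 ± 406 CPM in the knockdown-labelled libraries and 1724 ± 497 CPM in the controls, and Yy1, a zinc finger transcription factor, at 121 ± 19.5 CPM in the knockdown-labelled libraries and 95.9 ± 17.5 CPM in the controls. Obox3 was at 625 ± 131 CPM in the knockdown-labelled libraries and 517 ± 39.2 CPM in the controls. Lin28a, an RNA-binding protein that blocks let-7 maturation, was at 0.644 ± 0.624 CPM in the knockdown-labelled libraries and 4.37 ± 4.89 CPM in the controls. Its controls 1 to 4 were at 0.642, 11.3, 4.37 and 1.19 CPM, and the knockdown-labelled libraries ran from 0.116 to 1.35 CPM. Lin28a and Yy1 had the 2 smallest p of this list, and the groups overlapped for both.

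Likeness to the main copy of each family was measured over the 8 libraries on log2 CPM with 1 CPM added, with the 10 members left out of the search. Among the 8823 genes whose average log2 CPM reached 2, Pearson's r with Usp17lb was highest for Rimkla (0.98), Cyth1 (0.96), 9330102E08Rik (0.96), 1110008P14Rik (0.94) and B4galt6 (0.94). With Tdpoz1 it was highest for Gm44974 (0.98), Wasf2 (0.97), Malsu1 (0.95), Tgfbr3 (0.94) and Stoml2 (0.92). These are the highest of many values over 8 libraries that share depth and scaling, and they carry no test. Usp17lb had an r of 0.46 with Usp17lc, 0.10 with Usp17la and 0.53 with Tdpoz1, and Tdpoz1 an r of −0.0057 with Tdpoz4 and −0.33 with Tdpoz2.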

How the data were processed

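The table deposited by the authors gives RSEM expected counts per gene for the 8 libraries, with no scaling. RSEM 1.2.28, STAR 2.7.3a, Trim Galore 0.6.10 and the build GRCm38 (mm10) are named in the submitters' processing notes. The sources used here state neither annotation release nor strand setting nor read length. Expected counts were rounded, which altered 4.22% of the values. Genes were kept by filterByExpr (minimum count 10, minimum total 15), scaled by TMM and compared with edgeR 4.0.16 (quasi-likelihood, robust, group only) in R 4.3.3, with Benjamini-Hochberg adjustment over 13146 genes and calls at 0.05. Fold changes set knockdown-labelled libraries over controls. DESeq2 1.42.0, limma-voom (limma 3.58.1), other scalings, filters, thinning to the smallest total, a replicate block and leaving out libraries were alternatives. A trial run of these steps used simulated counts, and its outcome is not given here. It therefore does not show what size of difference would be called at the spread of these libraries (common biological coefficient of variation 0.987). The labels call the samples biological replicates and mention no molecular identifiers. The members and gene lists were chosen with earlier results of these data known, and 2 listed symbols were not matched. Named genes are the members, Polq, the 2 most abundant and the 2 with the smallest p of each list, and the 5 most alike in Pearson's r to the main copy of each family. Positions and windows are from GENCODE M21, promoters from RefSeq. Same-numbered libraries of the groups did not deviate together (r from −0.12 to 0.017 over the tested genes).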

Additional observations from a re-analysis of the deposited data

Results flagged for a closer look

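In 9 of the 86 groups of 4 libraries examined, 1 library stood far from the other 3 (Dixon's test at its 95% critical value). For normally distributed values chance alone passes it in about 1 of 20 groups, a rate that does not hold here. A group with 1 library above 0 and the other 3 at 0 always passes, as for Usp17ld, Tdpoz6 and Ptprc. Groups at 0 throughout cannot pass but are among the 86. Among the members, Usp17la was at 20.98 CPM in control replicate 2, against 4.80 to 7.02 CPM in the other controls. Usp17ld was at 0.347 CPM in knockdown-labelled replicate 3, from 3 counts, and at 0 in the other 3. Of the further Tdpoz rows, Tdpoz9 was at 16.8 CPM in knockdown-labelled replicate 2, against 11.3 to 11.9 CPM in the others, and Tdpoz6 at 0.559 CPM in control replicate 4 and at 0 in the other controls. Among the listed genes, Dcun1d1 was at 297 CPM in 1 knockdown-labelled library, against 156 to 179.5 CPM in the others, and Usp16 at 377 CPM in 1 control, against 281 to 295 CPM. Of the markers of cumulus and granulosa cells, Tnfaip6 was at 10.7 CPM in 1 knockdown-labelled library, against 0 to 1.16 CPM in the others, and Cyp19a1 at 5.23 CPM in 1 control, against 0 to 0.0233 CPM. The blood marker Ptprc was at 0.0233 CPM in 1 control and at 0 in the others.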

How the results depend on the processing

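No member and no listed gene passed under any of the 18 alternatives, and the count over all genes stayed at 0 except with DESeq2, which called 20. Of 123 recomputed fold changes of single members 106 kept their direction and 17 turned, none past the threshold. Without knockdown-labelled replicate 2, 1 of the 7 members had an unadjusted edgeR p under 0.05, beside 440 of all 14111 genes tested in that setting. The Usp17l sum kept its negative difference in 17 of 17 alternatives, and the Tdpoz sum in 15 of 17. The replicate block leaves the sums unchanged, so neither difference could turn there. Taking every row of the family name added only Usp17le-ps to Usp17l, which had no counts, so that difference could not turn either. With 1 library left out the Usp17l difference ran from −0.38 to −0.13 and the Tdpoz difference from −0.36 to 0.37. The log2 fold changes that turned, with 1 library left out, ran from −0.56 to 0.54 for Usp17la, −0.18 to 0.32 for Usp17lc, −0.45 to 0.43 for Tdpoz1 and −0.44 to 1.001 for Tdpoz2. Usp17lc was at −0.027 without a filter on low counts, and without the 3 small knockdown-labelled libraries Usp17lc was at −0.22 and Tdpoz1 at −0.45, where the median of all genes was −0.36. That alternative sets 1 knockdown-labelled library against 4 controls and assumes that it varies as they do, so the absence of calls in it says little. With limma-voom Usp17la was at 0.061 and Tdpoz1 at −0.45. With the replicate number as a block Usp17la was at 0.0065, Tdpoz1 at −0.21 and Tdpoz2 at −0.11, and 0 genes passed. The numbers are not known to pair the libraries, and 0 of 4 knockdown-labelled libraries matched best the control of their own number. The causes of these turns were not tested. In the smallest library 3 counts are 0.595 CPM, so lower levels can go unseen there. At full depth 7, 8, 9 and 8 members had a count in knockdown-labelled replicates 1 to 4, against 8, 9, 8 and 6 in control replicates 1 to 4. Thinned to the smallest total, it was 7, 8, 9 and 8 members in knockdown-labelled replicates 1 to 4, against 7, 7, 8 and 6 in control replicates 1 to 4. Whether depth set the number of members with a count was not tested.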
